A study of Homo sapiens with 10 samples.

Results

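SLC2A1, HK1, HK2, PFKP, ALDOA, TPI1, PGK1, ENO1, PKM and LDHA carry glucose from the medium to lactate, and their mRNA was followed in HeyA8 cells after transfection of siRNA duplexes that differ in the seed of the guide strand. The 10 genes were taken by name from the 58395 genes counted in each library, and all 10 were among the 16905 genes with enough reads to be tested. HeyA8 is an established human ovarian cancer cell line, described in the labels as parental, and each duplex was given at 10 nM. The 10 libraries formed 5 groups of 2. siNT1, a non-targeting duplex whose label adds S2'OM, was sampled at 24 h and at 48 h, siGGGGGC (siMxy in the titles) at 24 h and at 48 h, and siGGCAGU (si34a in the titles) at 48 h. siGGGGGC and siGGCAGU are named after bases 2 to 7 of the guide. The authors state that the passenger strand of both was chemically modified to keep it out of the silencing complex. Per the methods, the sense strand of siNT1 begins with the same modified bases. Duplicates were wells of a single cell line, so p-values measure the spread between wells and libraries. The medium of the 48 h wells was changed at 24 h, so the effect of time and that of the fresh medium cannot be told apart.

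Glycolysis splits a glucose molecule into a pair of pyruvate molecules in the cytosol and yields ATP and NADH on the way. Glucose enters through transporters of the SLC2A family, hexokinase traps it as glucose 6-phosphate, phosphofructokinase commits it to the pathway, and lactate dehydrogenase turns pyruvate to lactate while it returns NAD+ to the earlier steps. Many tumor cells run this route quickly even with oxygen present, and the transcription factors HIF1A and MYC are both known to raise the expression of several of its genes.

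Library depth was 19781445 to 42428986 counts. The small RNA genes RN7SL2 and SNORD3A took 19.83% to 31.96% of a library. Values below are read counts scaled by TMM, which compares libraries over the bulk of genes. Raw counts, counts of pseudogenes and shares of counts are unscaled. Replicates of siNT1 and of siGGCAGU at 48 h lay further apart (SD of the log2 difference over genes of 0.234 and 0.277) than those of the other groups (0.147 to 0.179). Markers fitted the label in part. KRT8, KRT18 and KRT7 were between 1943 and 10351 normalized counts and VIM between 20409 and 39330, while EPCAM, KRT19 and CDH1 reached at most 45.3 in any library. Of the 3 ovarian markers listed, PAX8 was between 87.0 and 909 and WT1 between 36.2 and 109. MUC16 was at 31.0 or less and had too few reads to be tested. Of the markers of other lineages, PTPRC, ALB and CD3E were at 6.55 or less and PECAM1 at 19.1 or less. With siGGGGGC at 48 h, markers of several kinds fell. They were 3 of 5 epithelial markers tested (KRT8, KRT18 and KRT7) and all 4 mesenchymal markers (VIM, CDH2, FN1 and CD44). PAX8 and WT1, the 2 ovarian markers tested, fell as well. Of all genes tested, 27.5% were lower in this comparison. With siGGCAGU, KRT8, FN1 and PAX8 rose, as did PECAM1 at its few reads, and EPCAM, VIM, CD44 and WT1 fell. Here 27.8% of all genes tested were higher and 24.9% lower. The part of these shifts in the values below was not tested. In bulk RNA, fewer cells of a kind and less RNA per cell cannot be told apart.

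A guide strand pairs with mRNA through its seed as a microRNA does, and the mature microRNAs that carry the same seeds are shown here because both duplexes are named after that seed. They come from RefSeq on GRCh38.p14, are written 5′ to 3′, and capitals mark bases 2 to 8.
hsa-miR-34a-5p: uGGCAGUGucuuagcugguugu
hsa-miR-449a: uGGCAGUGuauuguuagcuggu
hsa-miR-449b-5p: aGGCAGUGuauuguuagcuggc
hsa-miR-548au-3p: uGGCAGUUacuuuugcaccag
hsa-miR-1237-5p: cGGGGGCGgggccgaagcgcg
hsa-miR-4488: aGGGGGCGggcuccggcg
The first 4 share bases 2 to 7 with siGGCAGU and the last 2 with siGGGGGC. hsa-miR-548au-3p differs from the other 3 of its group at base 8.

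ACTGCC pairs with the seed of siGGCAGU and was present in the longest annotated 3′ UTR of 3 of the 10 genes. GCCCCC, which pairs with the other seed, was present in 4. Of 19417 such 3′ UTRs in GENCODE release 44, 32.3% held ACTGCC and 29.8% held GCCCCC, so the 10 genes were near the background for both. The sites of the genes that the results turn on are given with their surroundings on hg38, in the direction of the mRNA, with the word in capitals.
TPI1, chr12:6870435-6870464, plus strand: agaagcccagtaACTGCCctttccctgcat
LDHA, chr11:18407527-18407556, plus strand: ctctgacgcaccACTGCCaatgctgtacgt
HK1, chr10:69401144-69401173, plus strand: gatccccagcctACTGCCtctccagcactt
SLC2A1, chr1:42925608-42925637, minus strand: tcatttggaattGCCCCCtctggttcctct
PFKP, chr10:3137295-3137324, plus strand: ctgccctggtggGCCCCCctcctgtaggga
TPI1 and LDHA had 1 ACTGCC each and HK1 had 3, and in LDHA the word was followed by an A. Among 3′ UTRs of like length, within 20%, 17% held ACTGCC for TPI1, 27.8% for LDHA and 22.2% for HK1. SLC2A1, PFKP and ENO1 had 1 GCCCCC each and ALDOA had 2. HK2, PGK1 and PKM held neither word in this UTR. A match is a string of letters and does not show that a guide bound there, and which 3′ UTR these cells use was not measured.

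Levels spanned a wide range along the pathway. In CPM (counts scaled to a common library size) per kilobase of the canonical transcript, the scale on which genes can be compared, the order with siNT1 at 48 h was ENO1 at 1075 ± 75.9 (SD, n = 2 in each group here and below), TPI1 at 780.1 ± 66.6, PKM at 383.8 ± 16.1, LDHA at 311.1 ± 20.3, PGK1 at 75.4 ± 4.96, PFKP at 55.2 ± 6.26, HK1 at 49.1 ± 1.46, SLC2A1 at 19.3 ± 1.78, HK2 at 8.92 ± 2.90 and ALDOA at 3.04 ± 0.0426. The later steps, from TPI1 on, thus lay above uptake and the first phosphorylations. PFKP and HK1 were the closest neighbors, with libraries at 50.8 to 59.6 for PFKP and 48.0 to 50.1 for HK1. The order changed with both siRNAs at 48 h. With siGGCAGU, TPI1 dropped below PKM (344.8 ± 48.9 against 551.0 ± 66.7). With siGGGGGC, PFKP passed PGK1 (115.4 ± 14.0 against 84.3 ± 0.124), and at 24 h their libraries overlapped, at 94.1 and 94.5 for PFKP and 88.3 and 99.1 for PGK1.

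**Figure D1:**
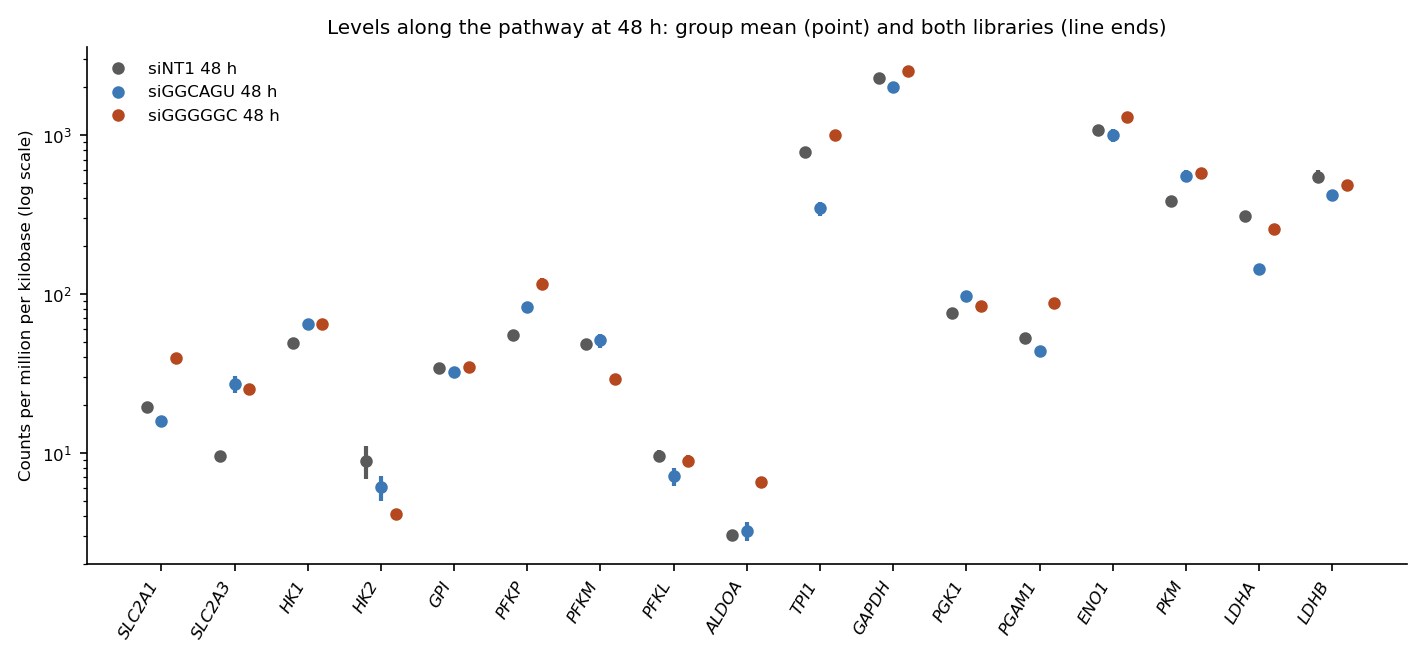
Levels of the pathway's genes at 48 h, in CPM per kilobase of transcript on a log scale, with the group mean as a point and the 2 libraries as the ends of a line. GAPDH and ENO1 lie at the top in all 3 groups, and TPI1 and LDHA are lowest with siGGCAGU.

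ALDOA was low for a gene known as an abundant enzyme, and its level is uncertain. In GENCODE release 44, 89.8% of the bases of its canonical transcript are shared with a gene on the same strand, ENSG00000285043, and exon reads that match 2 genes are left out by the usual setting of htseq. Whether the annotation used for counting held this overlap, and whether reads were left out for it, was not tested. Raw counts were only 91 to 281 per library for ALDOA and 8 to 32 for ENSG00000285043. TPI1 has a processed pseudogene, TPI1P1, with 33492 counts over the 10 libraries, and the pseudogenes made up 10.2% of the counts of TPI1 and its pseudogenes. For LDHA that share was 2.02%, for HK2 2.06%, and for the other genes with pseudogenes in the files it was 0.652% or less.

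Together the 10 genes took 0.597% and 0.595% of all counts with siNT1 at 24 h, 0.624% and 0.587% with siNT1 at 48 h, 0.660% and 0.699% with siGGGGGC at 24 h, 0.649% and 0.707% with siGGGGGC at 48 h, and 0.486% and 0.489% with siGGCAGU. Both libraries of siGGCAGU lay below every other library and all 4 of siGGGGGC above every other. The 95% Wilson intervals of these shares reached at most 0.0036 percentage points to either side and cover counting error only. ENO1 gave 34.4% to 37.4% of the 10 genes' counts in every library, so the sum leans on that gene.

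siGGGGGC moved the 10 genes mostly up, whereas siGGCAGU split them. A gene passed when its adjusted p was below 0.05 over all genes tested (edgeR quasi-likelihood F test, Benjamini-Hochberg). At 24 h with siGGGGGC, SLC2A1, HK1, PFKP and PKM rose, 4 of 10, where 10.6% of all genes tested passed as higher. None of the 10 passed as lower (8.32% of all genes). At an unadjusted p under 0.05 there was 1 lower, HK2, and DESeq2 and limma-voom each called 0. At 48 h 7 rose with siGGGGGC (27.8% of all genes higher) and 2, HK2 and LDHA, fell (27.5% lower). With siGGCAGU at 48 h, HK1, PFKP, PGK1 and PKM rose (27.8% of all genes higher) and SLC2A1, HK2, TPI1 and LDHA fell (24.9% lower). The median log2 fold change of the 10 was 0.38 with siGGGGGC at both time points, against 0.003 and -0.011 over all genes, and with siGGCAGU it lay between ENO1 at -0.11 and ALDOA at 0.11, against 0.024. Comparisons at 48 h share the same siNT1 libraries and are not independent. When a fit held only the groups compared, 8 of the 10 passed with siGGGGGC at 24 h and 5 with siGGCAGU.

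**Figure D2:**
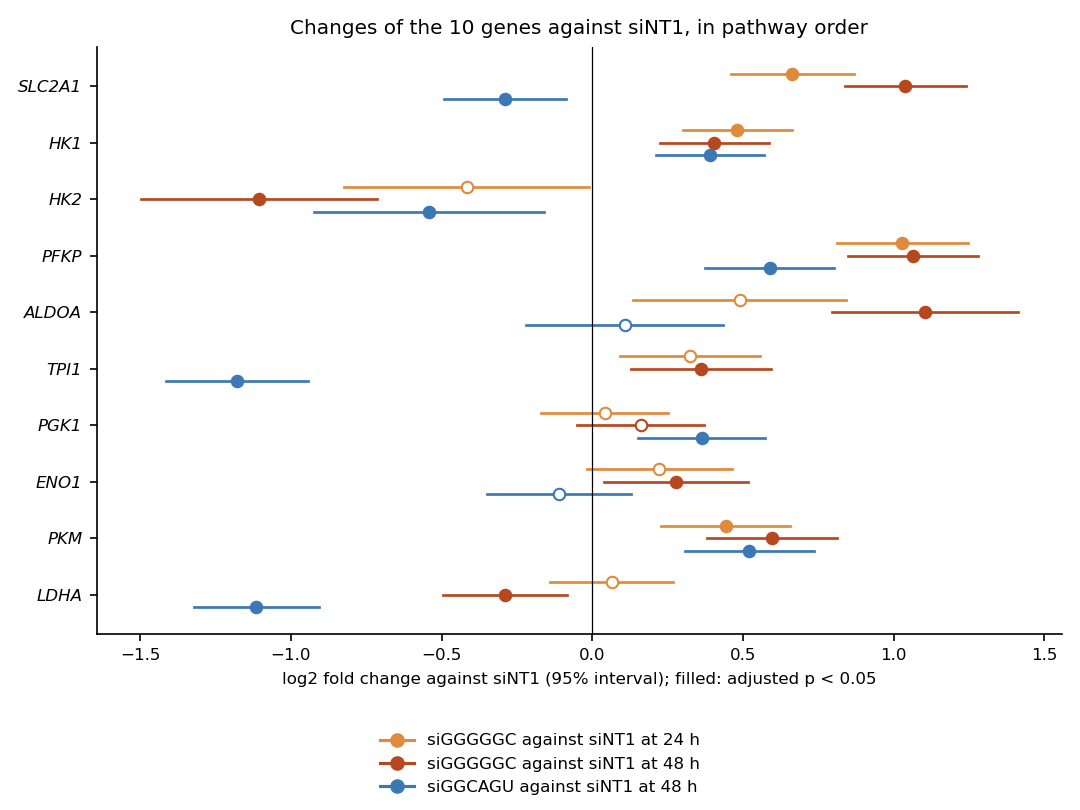
Log2 fold changes of the 10 genes against siNT1 at the same time, with 95% intervals and in pathway order, where filled points passed the test. HK1, PFKP and PKM lie to the right of 0 in all 3 comparisons, and TPI1 and LDHA lie far to the left only for siGGCAGU.

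SLC2A1 encodes GLUT1, the transporter that supplies basal glucose to most cells. It had 1590 and 1658 normalized counts with siNT1 at 24 h and 2486 and 2654 with siGGGGGC. At 48 h there were 1811 and 1590 with siNT1, 1478 and 1307 with siGGCAGU, and 3382 and 3597 with siGGGGGC. Every siGGGGGC library was above every other library, and both siGGCAGU libraries were below all siNT1 libraries. SLC2A1 (ENSG00000117394, hg38 chromosome 1, 42925353 to 42958893) rose with siGGGGGC by 0.66 on the log2 scale at 24 h (standard error 0.0958, adjusted p = 0.000202, edgeR) and by 1.04 at 48 h (standard error 0.0941, adjusted p = 2.36e-07). With siGGCAGU it fell by 0.29 on the log2 scale (adjusted p = 0.0178). Without replicate 1 of siNT1 this fall was -0.19 (adjusted p = 0.139) and without replicate 2 of siGGCAGU -0.20 (adjusted p = 0.12), so that call rests on those libraries.

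Of 12 other hexose transporters listed, 6 had enough reads to be tested. With siGGGGGC 2 rose and 1 fell at 24 h and 3 rose and 1 fell at 48 h, and with siGGCAGU 2 rose and 1 fell. Over all genes tested the shares higher and lower were 10.6% and 8.32%, 27.8% and 27.5%, and 27.8% and 24.9%. The 1 that fell at 48 h with either duplex and the 2 that rose with siGGCAGU were thus near the background. SLC2A3 (GLUT3), a high-affinity transporter, had 930 and 974 normalized counts with siNT1 at 48 h, 2379 and 3033 with siGGCAGU, and 2709 and 2290 with siGGGGGC. It rose at 48 h with both duplexes, by 1.51 with siGGCAGU (adjusted p = 4.13e-08) and 1.39 with siGGGGGC (adjusted p = 1.18e-07), and was at -0.30 at 24 h (adjusted p = 0.122). Within a library, SLC2A1 gave 66.1% and 62.0% of the counts of SLC2A1 and SLC2A3 together with siNT1 at 48 h, but 38.3% and 30.1% with siGGCAGU. With siGGGGGC the share was 78.2% and 81.4% at 24 h, above the 67.1% and 67.0% of siNT1, and 55.5% and 61.1% at 48 h. Wilson intervals of these shares reached at most 2.1 percentage points to either side. SLC2A6, a lysosomal transporter, rose by 1.69 with siGGCAGU (adjusted p = 1.18e-07) and by 0.80 with siGGGGGC at 24 h (adjusted p = 0.009). SLC2A8 rose with siGGGGGC (0.90 at 24 h, 0.64 at 48 h) and was higher there than with siGGCAGU (0.52, adjusted p = 0.0102), and SLC2A13, the proton-coupled myo-inositol transporter, fell in all 3 comparisons (-0.48, -0.53 and, with siGGCAGU, -0.30 with an adjusted p of 0.048).

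**Figure D3:**
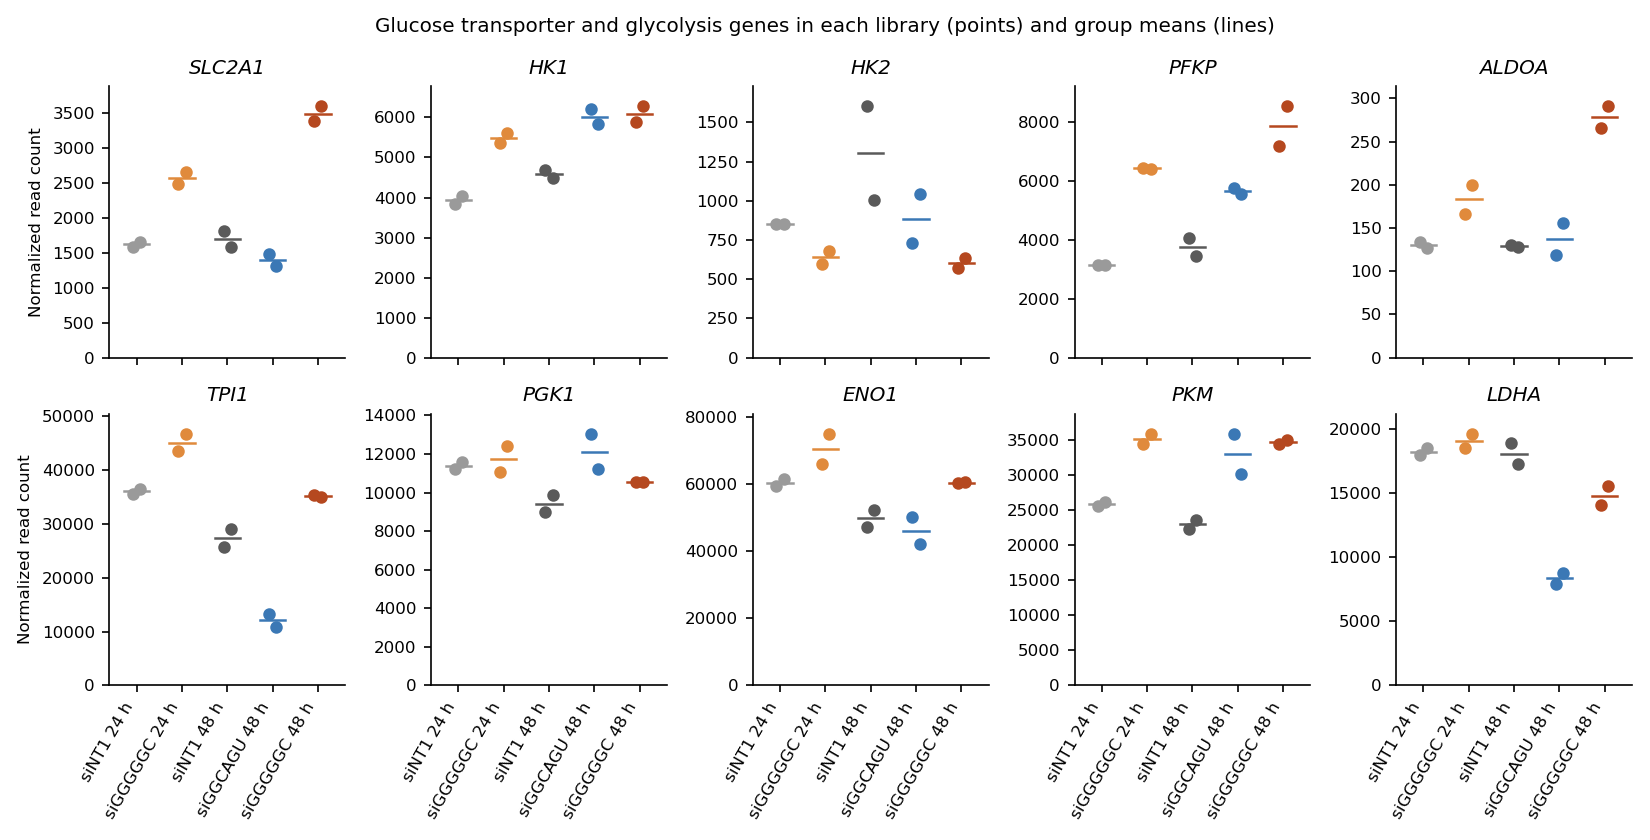
Normalized read counts of the 10 genes in each library, with points for the 2 libraries of a group, a line for their mean, and an axis that starts at 0 for each gene. SLC2A1 is highest with siGGGGGC at 48 h, and TPI1 and LDHA are lowest with siGGCAGU.

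Hexokinases phosphorylate glucose, and HK1 and HK2 went in opposite directions. HK1, the widely expressed form, had 3827 and 4029 normalized counts with siNT1 at 24 h and 5366 and 5603 with siGGGGGC. By 48 h it had 4687 and 4494 with siNT1, 6211 and 5825 with siGGCAGU, and 5877 and 6283 with siGGGGGC. All 6 libraries of siGGGGGC and siGGCAGU were above all 4 of siNT1. HK1 (ENSG00000156515, chromosome 10, 69269984 to 69401884) rose by a log2 fold change of 0.48 at 24 h (standard error 0.0854, adjusted p = 0.00105), 0.41 at 48 h with siGGGGGC (standard error 0.0845, adjusted p = 0.000794) and 0.39 with siGGCAGU (standard error 0.0845, adjusted p = 0.00113). HK1 holds 3 ACTGCC words in its 3′ UTR, the first of which is printed above, and was higher with siGGCAGU.

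HK2, the inducible hexokinase that is high in many tumors, had 852 and 855 normalized counts with siNT1 at 24 h and 599 and 679 with siGGGGGC. At the later time HK2 had 1603 and 1004 with siNT1, 730 and 1043 with siGGCAGU, and 575 and 633 with siGGGGGC. The siNT1 libraries at 48 h were far apart, and the higher siGGCAGU library was above the lower siNT1 library. HK2 (ENSG00000159399, chromosome 2, 74834127 to 74893359) fell with siGGGGGC at 48 h by 1.11 on the log2 scale (standard error 0.184, adjusted p = 0.000109) and with siGGCAGU by 0.54 (standard error 0.179, adjusted p = 0.0186). At 24 h its log2 fold change was -0.42 (adjusted p = 0.148). The siGGCAGU value shrank to -0.17 without replicate 1 of siNT1 (adjusted p = 0.399) and to -0.32 without replicate 1 of siGGCAGU (adjusted p = 0.161).

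As a share of HK1 and HK2 counts, which needs no scaling between libraries, HK2 was 18.2% and 17.5% with siNT1 and 10.0% and 10.8% with siGGGGGC at 24 h. At 48 h it was 25.5% and 18.3% with siNT1, 10.5% and 15.2% with siGGCAGU, and 8.91% and 9.15% with siGGGGGC. Each siRNA group was below the siNT1 group of its time without overlap, and the intervals reached at most 1.2 percentage points to either side. HKDC1, a further hexokinase family member, had 130 and 158 normalized counts with siNT1 at 48 h, 836 and 1046 with siGGCAGU, and 1032 and 973 with siGGGGGC. It rose by 2.71 and 2.79 (adjusted p = 2.91e-10 and 2.68e-10) and already by 1.01 at 24 h (adjusted p = 0.000244). These were the largest changes among the 12 other glycolysis enzymes tested.

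**Figure D4:**
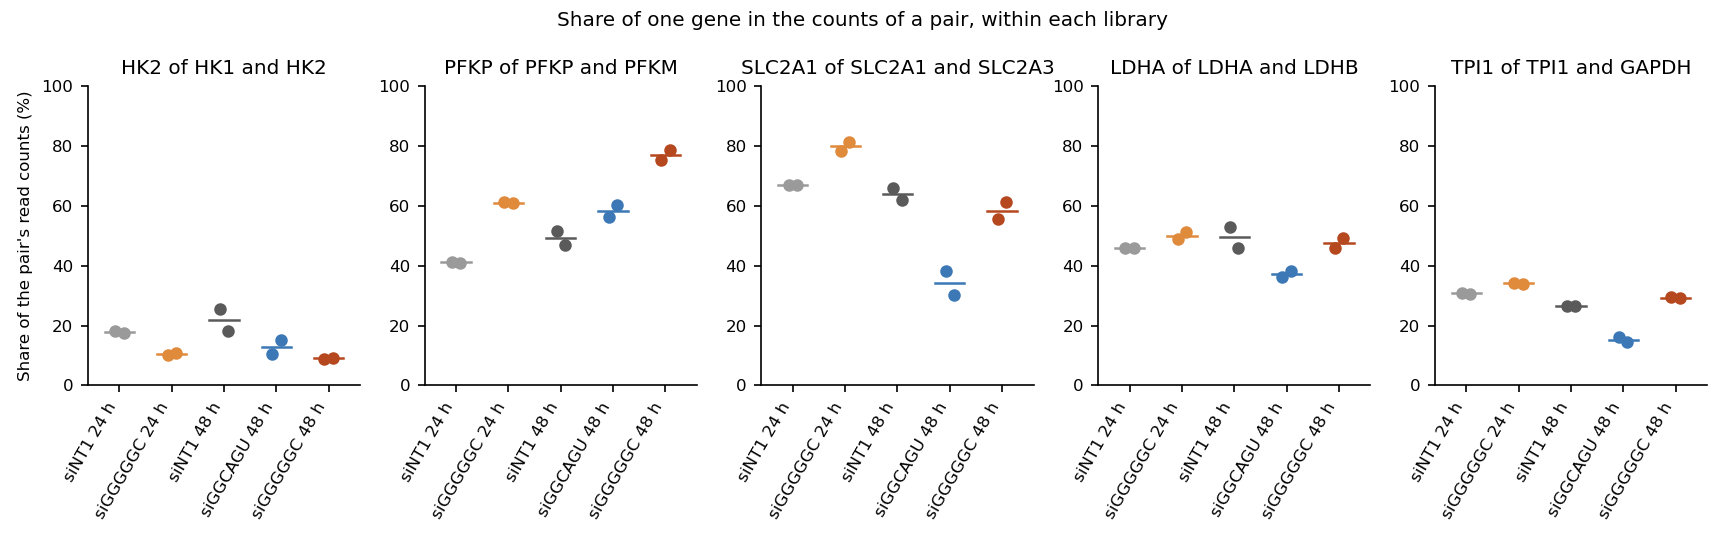
Share of a named gene in the read counts of a pair of genes within each library (%), with points for libraries and a line for the group mean. HK2 lost share to HK1 in every siRNA group, and SLC2A1 lost share to SLC2A3 with siGGCAGU.

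Phosphofructokinase makes fructose 1,6-bisphosphate from fructose 6-phosphate, and PFKP is its platelet-type form. PFKP had 3161 and 3145 normalized counts with siNT1 at 24 h and 6446 and 6419 with siGGGGGC. At 48 h it had 4068 and 3464 with siNT1, 5756 and 5567 with siGGCAGU, and 7203 and 8550 with siGGGGGC. No siRNA library overlapped with siNT1 at either time. PFKP (ENSG00000067057, chromosome 10, 3066333 to 3137718) rose 2.04-fold at 24 h (log2 fold change 1.03, standard error 0.102, adjusted p = 6.86e-06) and 2.09-fold at 48 h with siGGGGGC (1.07, standard error 0.101, adjusted p = 3.78e-07), and 1.5-fold with siGGCAGU (0.59, standard error 0.1, adjusted p = 0.000144). The 48 h effect of siGGGGGC on PFKP differed from the 24 h effect by 0.04, with an interval of -0.27 to 0.34. PFKP holds a GCCCCC and was higher with siGGGGGC.

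The muscle-type form PFKM had 3832 and 3916 normalized counts with siNT1 at 48 h and 2354 and 2310 with siGGGGGC. It fell by 0.73 on the log2 scale (adjusted p = 9.53e-06) and was at 0.08 with siGGCAGU (adjusted p = 0.526). PFKP made up 51.5% and 46.9% of PFKP and PFKM counts with siNT1 at 48 h, 56.2% and 60.2% with siGGCAGU, and 75.4% and 78.7% with siGGGGGC. The liver-type form PFKL rose at 24 h with siGGGGGC (0.58, adjusted p = 0.00712), was at -0.10 at 48 h (adjusted p = 0.503) and fell with siGGCAGU (-0.42, adjusted p = 0.0113). PFKFB3, which makes the activator fructose 2,6-bisphosphate, had 1508 and 1375 normalized counts with siNT1 at 48 h and 507 and 554 with siGGCAGU. It fell by 1.44 with siGGCAGU (adjusted p = 6.89e-09) and by 0.25 with siGGGGGC (adjusted p = 0.0311). TIGAR, which degrades the same activator, rose with both at 48 h (0.59 and 0.53).

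ALDOA, aldolase A, cleaves fructose 1,6-bisphosphate. It had 131 and 128 normalized counts with siNT1 at 48 h, 119 and 155 with siGGCAGU, and 266 and 291 with siGGGGGC, and at 24 h it had 134 and 127 with siNT1 and 166 and 200.2 with siGGGGGC. Both siGGGGGC groups were above their siNT1 group. ALDOA (ENSG00000149925, chromosome 16, 30064164 to 30070457) rose at 48 h with siGGGGGC by 1.10 (standard error 0.145, adjusted p = 1.09e-05), was at 0.49 at 24 h (adjusted p = 0.0514) and at 0.11 with siGGCAGU (adjusted p = 0.586). These values carry the uncertainty of the overlap given above.

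TPI1, triosephosphate isomerase, interconverts the 2 triose phosphates and had the widest range of the 10 genes. It had 35623 and 36532 normalized counts with siNT1 at 24 h and 43514 and 46769 with siGGGGGC. TPI1 at 48 h had 25731 and 29038 with siNT1, 13319 and 10889 with siGGCAGU, and 35318 and 35048 with siGGGGGC. The siGGCAGU libraries were below every other library by a wide margin. TPI1 (ENSG00000111669, chromosome 12, 6867119 to 6870948) fell with siGGCAGU by 1.18 on the log2 scale (standard error 0.110, adjusted p = 2.97e-07), to 0.442 of the siNT1 level. With siGGGGGC it was at 0.32 at 24 h (adjusted p = 0.0501) and rose by 0.36 at 48 h (adjusted p = 0.0107). The 48 h rise had adjusted p-values of 0.0542 to 0.0608 without replicate 1 of siNT1 or without either siGGGGGC library.

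The fall of TPI1 was large beside GAPDH, the enzyme of the next step, whose 63736 to 90984 normalized counts did not pass against siNT1 in any comparison (log2 fold changes of 0.11, 0.16 and, with siGGCAGU, -0.19). TPI1 was 26.7% and 26.4% of TPI1 and GAPDH counts with siNT1 at 48 h, 16.1% and 14.6% with siGGCAGU, and 29.4% and 29.2% with siGGGGGC, with intervals of at most 0.31 percentage points to either side. The pseudogene TPI1P1 had log2 fold changes of -1.15 with siGGCAGU (adjusted p = 1.71e-06) and 0.43 with siGGGGGC at 48 h (adjusted p = 0.00768), close to those of TPI1. Reads from identical stretches of TPI1 and TPI1P1 cannot be told apart, so the values of both are uncertain, by an amount that was not measured. TPI1 carries 1 ACTGCC, 67 bases into its 3′ UTR.

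PGK1, phosphoglycerate kinase, makes the first ATP that the pathway returns, and was the steadiest of the 10. Its group means spanned only 0.36 on the log2 scale. It had 8984 and 9861 normalized counts with siNT1 at 48 h, 13043 and 11205 with siGGCAGU, and 10552 and 10530 with siGGGGGC. At 24 h it had 11199 and 11570 with siNT1 and 11042 and 12393 with siGGGGGC, which overlap. PGK1 (ENSG00000102144, chromosome X, 77910739 to 78129295) rose with siGGCAGU by 0.36 (standard error 0.0988, adjusted p = 0.00591). Without replicate 1 of siGGCAGU the value was 0.25 (adjusted p = 0.0504). With siGGGGGC it was at 0.04 at 24 h (interval -0.17 to 0.25, adjusted p = 0.818) and 0.16 at 48 h (interval -0.05 to 0.37, adjusted p = 0.179).

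ENO1, alpha-enolase, which forms phosphoenolpyruvate, was the most abundant of the 10. It had 47284 and 52248 normalized counts with siNT1 at 48 h, 50242 and 41933 with siGGCAGU, and 60188 and 60490 with siGGGGGC. The siGGCAGU libraries lay on both sides of the lower siNT1 library. ENO1 (ENSG00000074800, chromosome 1, 8861000 to 8879190) rose with siGGGGGC at 48 h by 0.28 (standard error 0.112, adjusted p = 0.0471). This call was near the threshold and was lost under upper-quartile scaling, without a filter on low counts and without replicate 1 of siNT1 (0.21, adjusted p = 0.153) or either siGGGGGC library (0.27 and 0.28). With siGGCAGU it was at -0.11 (interval -0.35 to 0.13, adjusted p = 0.432). PGAM1, the enzyme before it, rose with siGGGGGC at 48 h by 0.73 (adjusted p = 3.35e-06) and fell with siGGCAGU by 0.28 (adjusted p = 0.0129). ENO2, the neuronal enolase, fell with siGGCAGU by 0.68 (adjusted p = 2.91e-05).

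PKM, pyruvate kinase of muscle and tumors, makes the pyruvate. It had 25532 and 26197 normalized counts with siNT1 at 24 h and 34415 and 35893 with siGGGGGC. At 48 h it had 22303 and 23666 with siNT1, 35828 and 30177 with siGGCAGU, and 34427 and 35058 with siGGGGGC. All 6 libraries of siGGGGGC and siGGCAGU were above all 4 of siNT1. PKM (ENSG00000067225, chromosome 15, 72199029 to 72231819) rose by 0.44 at 24 h (standard error 0.101, adjusted p = 0.00612), 0.60 at 48 h with siGGGGGC (standard error 0.101, adjusted p = 0.000129) and 0.52 with siGGCAGU (standard error 0.101, adjusted p = 0.000433). The 24 h call was lost without either siNT1 library or without replicate 2 of siGGGGGC (0.41 to 0.46, adjusted p = 0.0555 to 0.0805). Counts per gene do not separate the PKM1 and PKM2 splice forms.

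LDHA, the lactate dehydrogenase subunit that favors making lactate, had 18002 and 18540 normalized counts with siNT1 at 24 h and 18562 and 19653 with siGGGGGC. At 48 h it had 18948 and 17277 with siNT1, 7924 and 8804 with siGGCAGU, and 14064 and 15572 with siGGGGGC. Both siGGCAGU libraries were far below every other library, and the siGGGGGC libraries at 48 h came next. LDHA (ENSG00000134333, chromosome 11, 18394560 to 18408425) fell with siGGCAGU by 1.11 on the log2 scale (standard error 0.0974, adjusted p = 1.38e-07), to 0.462 of the siNT1 level, and with siGGGGGC at 48 h by 0.29 (standard error 0.0961, adjusted p = 0.0185). The smaller fall had adjusted p-values of 0.0807 without replicate 1 of siNT1 and 0.167 without replicate 1 of siGGGGGC. At 24 h it was at 0.06 (interval -0.14 to 0.27). LDHA carries the ACTGCC that is followed by an A, 261 bases into its 3′ UTR.

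LDHB, the other subunit, also fell with siGGCAGU, by 0.39 (adjusted p = 0.00401). LDHA was 53.0% and 46.0% of LDHA and LDHB counts with siNT1 at 48 h, 36.1% and 38.1% with siGGCAGU, and 45.8% and 49.4% with siGGGGGC, and both siGGCAGU libraries lay below the libraries of the other 2 groups. SLC16A1 (MCT1), a carrier of lactate, had 6593 and 6500 normalized counts with siNT1 at 48 h and 3386 and 3663 with siGGCAGU. It fell by 0.89 with siGGCAGU (adjusted p = 2.84e-07) and by 0.31 with siGGGGGC (adjusted p = 0.00474). SLC16A3 (MCT4), the carrier typical of lactate export, rose instead in all 3 comparisons, by 0.99 at 24 h and 0.76 at 48 h with siGGGGGC (adjusted p = 3.48e-05 and 3.83e-05) and by 0.50 with siGGCAGU (adjusted p = 0.0017).

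The 2 duplexes were compared directly at 48 h, at the same dose. SLC2A1, PFKP, ALDOA, TPI1, ENO1 and LDHA were higher with siGGGGGC than with siGGCAGU (26.7% of all genes tested were higher) and HK2 was lower (27.6% lower). TPI1 differed most, by 1.54 (interval 1.3 to 1.78, adjusted p = 1.74e-08), then SLC2A1 by 1.33 (interval 1.12 to 1.53, adjusted p = 1.66e-08), ALDOA by 1.00 (adjusted p = 3.89e-05) and LDHA by 0.82 (interval 0.62 to 1.03, adjusted p = 3.3e-06). PFKP differed by 0.48 (adjusted p = 0.000835), ENO1 by 0.39 (adjusted p = 0.00835) and HK2 by -0.56 (adjusted p = 0.018). HK2 lost the call without replicate 2 of siGGCAGU (-0.27, adjusted p = 0.273) or either siGGGGGC library (-0.50 and -0.64, adjusted p = 0.119 and 0.0505). ENO1 lost it without replicate 2 of siGGCAGU (0.26, adjusted p = 0.0781) or of siGGGGGC (0.39, adjusted p = 0.0516). For HK1 and PKM the difference was 0.02 (interval -0.17 to 0.20) and 0.07 (interval -0.14 to 0.29), and for PGK1 -0.20 (interval -0.41 to 0.01), which passed without replicate 2 of siGGCAGU (-0.31, adjusted p = 0.0185). An adjusted p above the threshold does not show that the duplexes act alike on these 3 genes.

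Few of the 10 genes changed with time in the control. From 24 h to 48 h with siNT1, HK2 rose by 0.61 (adjusted p = 0.0334) where 9.37% of all genes tested were higher, and TPI1 fell by 0.40 (adjusted p = 0.0234) where 7.2% were lower. Both calls were lost without either siNT1 library of 24 h or without replicate 1 of 48 h (HK2 then 0.23, adjusted p = 0.411; TPI1 -0.31, adjusted p = 0.132), while 5 of the 10 passed without replicate 2 of 48 h. The effect of siGGGGGC against siNT1 was larger at 48 h than at 24 h for SLC2A1, by 0.38 (adjusted p = 0.0465), and for ALDOA, by 0.61 (adjusted p = 0.0483), where 13.4% of all genes tested were higher in this difference. None passed as lower (15.2% of all genes), with 2 at an unadjusted p under 0.05. HK2 (-0.69) and LDHA (-0.35) both had an adjusted p of 0.0636. The tools did not call the same genes. With DESeq2, SLC2A1 and ALDOA did not pass (adjusted p = 0.0547 and 0.0995), whereas HK2 and LDHA passed as lower (adjusted p = 0.043 and 0.0499), and limma-voom called SLC2A1, ALDOA and LDHA. Without a low-count filter SLC2A1 and ALDOA also lost the call (0.24 and 0.48, adjusted p = 0.419 and 0.232) and HK2 and LDHA passed as lower, in a fit whose median over all genes was 0.143. With 1 library left out, SLC2A1 kept its call only without replicate 1 of siNT1 at 48 h (0.47), and lost it in the other 7 cases (0.28 to 0.42, adjusted p = 0.0709 to 0.162). ALDOA kept its call only without replicate 2 of siGGGGGC at 24 h (0.76) and lost it in the other 7 (0.49 to 0.67, adjusted p = 0.0669 to 0.182). Without replicate 2 of siNT1 at 48 h, HK2 (-0.99) and LDHA (-0.42) passed as lower (adjusted p = 0.00234 and 0.0251).

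Around the 10 genes, 105 genes of uptake, side branches and regulation were listed, and 81 had enough reads. Of these, 17 rose and 6 fell with siGGGGGC at 24 h, 35 rose and 22 fell at 48 h, and 37 rose and 21 fell with siGGCAGU. Over all genes tested the shares higher and lower were 10.6% and 8.32%, 27.8% and 27.5%, and 27.8% and 24.9%, so the numbers that fell lay near the background. Of the 7 genes of the pentose phosphate pathway, which makes NADPH and ribose 5-phosphate from glucose 6-phosphate, 3 rose with siGGGGGC at 24 h, 4 rose and 2 fell at 48 h, and 4 rose and 1 fell with siGGCAGU. TALDO1, the transaldolase of its non-oxidative branch, had 5574 and 5888 normalized counts with siNT1 at 48 h, 13971 and 11846 with siGGCAGU, and 15871 and 16681 with siGGGGGC, and rose by 1.17 and 1.51 (adjusted p = 6.22e-08 and 5.76e-09). PGLS, 6-phosphogluconolactonase, rose by 0.90 with siGGCAGU and 1.15 with siGGGGGC. RPIA, ribose 5-phosphate isomerase, had 352 and 286 normalized counts with siNT1 at 48 h and 47.1 and 46.9 with siGGCAGU. It fell by 2.76 on the log2 scale with siGGCAGU (adjusted p = 2.94e-09) and by 0.49 with siGGGGGC (adjusted p = 0.00682).

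**Figure D5:**
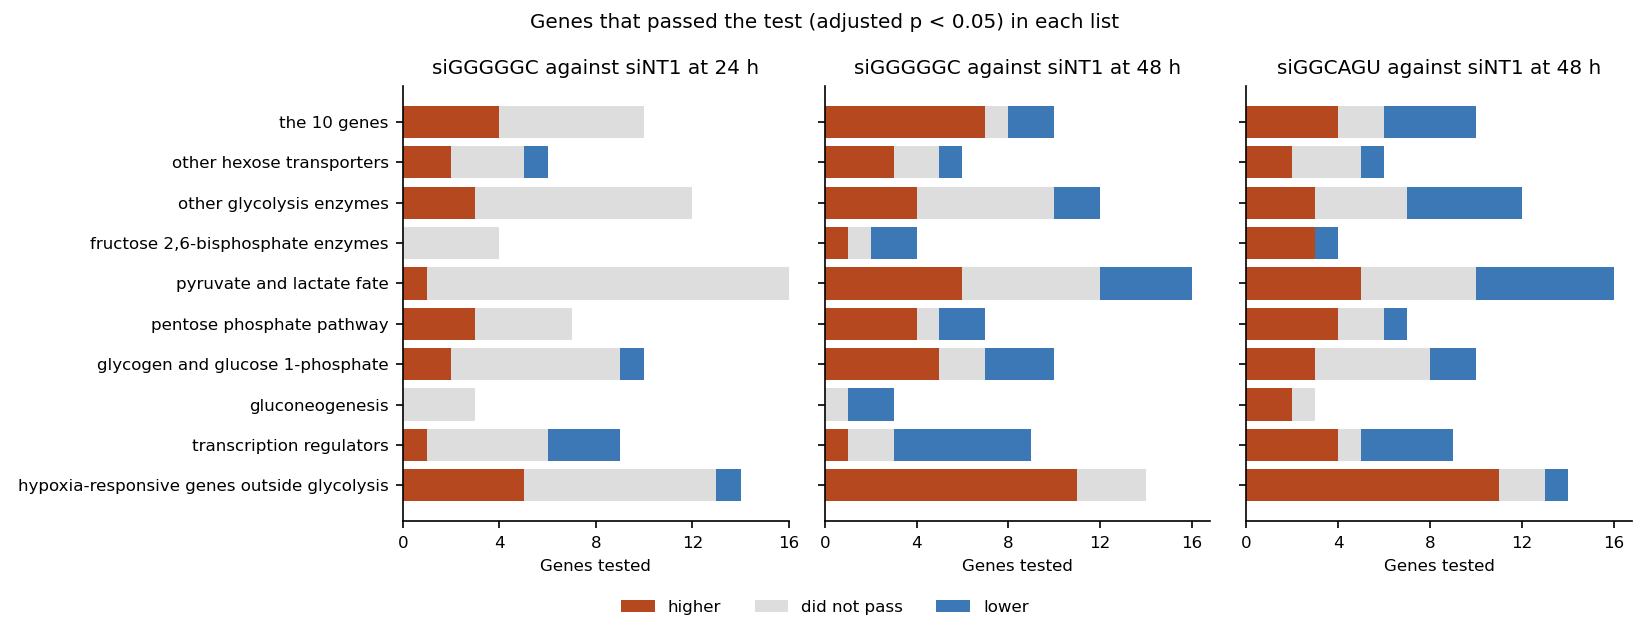
Number of genes of each list that passed the test as higher, passed as lower or did not pass, for siGGGGGC at 24 h and 48 h and siGGCAGU at 48 h, each against siNT1. At 48 h 11 of the 14 hypoxia-responsive genes tested were higher with either duplex (27.8% of all genes), and the 10 genes split 4 to 4 with siGGCAGU.

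At the fate of pyruvate, 6 of 16 genes rose and 4 fell with siGGGGGC at 48 h, and 5 rose and 6 fell with siGGCAGU, where 27.8% of all genes rose with either duplex and 27.5% and 24.9% fell. The 4 that fell with siGGGGGC and the 5 that rose with siGGCAGU were near those shares. PDK1, a kinase that shuts pyruvate dehydrogenase, went opposite ways. It had 265 and 288 normalized counts with siNT1 at 48 h, 663 and 673 with siGGGGGC, and 175 and 154 with siGGCAGU. PDK1 rose by 1.27 with siGGGGGC (adjusted p = 1.12e-07) and fell by 0.76 with siGGCAGU (adjusted p = 6.1e-05). PDP1, the opposing phosphatase, rose with siGGCAGU by 1.3 (adjusted p = 6.22e-09) and was at 0.20 with siGGGGGC (adjusted p = 0.0567). MPC2, a subunit of the mitochondrial pyruvate carrier, fell with siGGGGGC (-0.51) and rose with siGGCAGU (0.38). G6PC3 and PCK2, of the 3 gluconeogenesis genes tested, also split, both down with siGGGGGC (-1.0 and -0.43) and up with siGGCAGU (0.41 and 0.35). Among glycogen genes, PYGL, the liver phosphorylase, rose with siGGGGGC by 0.89 at 48 h (adjusted p = 3e-07), GYS1, glycogen synthase, fell by 1.13 (adjusted p = 4.6e-06), and PYGB, the brain phosphorylase, fell with both duplexes (-0.81 and, with siGGCAGU, -1.10).

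Of 9 regulators of the pathway and of glucose sensing tested, 1 rose and 6 fell with siGGGGGC at 48 h, and 4 rose and 4 fell with siGGCAGU. Of all genes tested, 27.8% rose with either duplex, and 27.5% and 24.9% fell. At 24 h with siGGGGGC 1 regulator rose and 3 fell (10.6% and 8.32% of all genes). HIF1A had 2405 and 2544 normalized counts with siNT1 at 48 h, 4093 and 4000 with siGGCAGU, and 3920 and 3754 with siGGGGGC, and rose by 0.71 and 0.63 (adjusted p = 2.24e-06 and 7.36e-06). MYC had 2561 and 2360 with siNT1, 693 and 730 with siGGCAGU, and 853 and 923 with siGGGGGC, and fell by 1.79 and 1.47 (adjusted p = 3.14e-10 and 2.83e-09). TXNIP, which restrains glucose uptake and is induced by glucose, fell with siGGGGGC by 1.99 at 24 h and 3.61 at 48 h (adjusted p = 6.88e-08 and 1.14e-11) and with siGGCAGU by 1.23 (adjusted p = 7.26e-08). Its 48 h counts were 1450 and 1574 with siNT1, 698 and 600.2 with siGGCAGU, and 118 and 128 with siGGGGGC.

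Of 14 hypoxia-responsive genes outside glycolysis tested, 11 rose with siGGGGGC at 48 h, and 11 rose and 1 fell with siGGCAGU. Over all genes 27.8% rose with either duplex, and 27.5% and 24.9% fell. The medians were 1.37 and 0.69, against -0.011 and 0.024 over all genes. At 24 h with siGGGGGC 5 rose and 1 fell (10.6% and 8.32% of all genes), and the median was 0.08, against 0.003. VEGFA, the angiogenic growth factor, had 135 and 152 normalized counts with siNT1 at 48 h and 815 and 776 with siGGGGGC, a rise of 2.47 (adjusted p = 2.68e-10). DDIT4, an inhibitor of mTORC1, rose by 3.28 with siGGGGGC and 1.76 with siGGCAGU, and ANGPTL4, a lipase inhibitor, by 1.58 and 2.66.

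The promoters were searched for the core of the hypoxia response element because most hypoxia-responsive genes tested outside the pathway were higher at 48 h. In RefSeq windows of 300 bases (250 before and 50 after the start, GRCh38.p14), ACGTG on either strand was present for LDHA (5 matches), PGK1 (3), HK2 (2) and ALDOA (1), and in 21.6% of 27305 promoters. The E-box CACGTG, which holds ACGTG on both strands and is bound by MYC among others, was present in LDHA only of the 10 genes (2 matches), and in 7.4% of promoters. Each E-box of LDHA was counted as 2 of its ACGTG matches, once per strand, so LDHA held no more separate sites than PGK1. The windows are shown, with the E-box in capitals, because no other of the 10 genes held it.
LDHA, chr11:18394368-18394393, plus strand: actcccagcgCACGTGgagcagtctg
LDHA, chr11:18394466-18394491, plus strand: gcccgactcaCACGTGggttcccgca
The antioxidant core TGACNNNGC was present in PKM only (13.6% of promoters). The 4 genes with ACGTG did not move together with siGGGGGC at 48 h, where ALDOA rose (1.10), HK2 and LDHA fell (-1.11 and -0.29) and PGK1 was at 0.16. A match is a description and shows no binding.

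Profiles most like those of the 3 genes with the widest range were sought over the 10 libraries among 5632 genes with a mean of at least 500 normalized counts, as a description, since the libraries share groups and depth. For TPI1 they were the pseudogenes TPI1P1 (Pearson r = 0.997 in log2 CPM), HMGB1P5 and RANP1 (both 0.995). For SLC2A1 they were CLPP (0.988), a mitochondrial protease subunit, HLTF (0.982) and VCP (0.981), an ATPase of protein quality control. For PFKP they were CDC34 (0.98), a ubiquitin-conjugating enzyme, STARD7 (0.979) and RASA3 (0.974). With 5 groups of 2, a profile is close to 5 points, and many genes reach such values.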

How the data were processed

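RNA was measured in 10 libraries of HeyA8 cells. Per the methods the authors depleted ribosomal RNA from total RNA, made paired-end TruSeq libraries (HiSeq4000; the labels state that RNA above a size limit was sequenced), trimmed reads with Trimmomatic, and aligned them to hg38 by TopHat or STAR, and htseq counted reads in the exons of each Ensembl gene. The deposited files hold raw read counts per gene, whole numbers that the authors did not normalize, for 58395 genes with 0 entries that name no gene. The labels list TopHat, Bowtie2, HTSeq and DESeq2. The files hold identifiers newer than the Ensembl release that the methods name, so the release used for counting is uncertain, and the strand setting is not given in the sources used here. The authors' 4 tables of fold changes and p-values were not used.

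Here counts were scaled by TMM (edgeR 4.0.16 in R 4.3.3), genes were filtered with filterByExpr on the 5 groups, and the quasi-likelihood F test was fitted to all 10 libraries at once (16905 genes, 5 residual degrees of freedom, biological coefficient of variation 0.0837). P-values were adjusted by Benjamini-Hochberg over all genes tested, and a gene passed below 0.05. Intervals are 95%. Normalized counts are TMM-scaled to the mean library size, with a prior count of 2 for log2 CPM. With 2 against 2 libraries the smallest two-sided exact permutation p is 0.333, so no such test was run. Depth of 19781445 to 42428986 counts limits precision for genes of few reads, ALDOA among them. Scripts were tested on simulated data.

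The 10 genes and the pathway lists were chosen with earlier results of these data known, so counts over them are descriptions. Besides the 10, the text names, for each list and each comparison with siNT1, up to 2 rises and 2 falls of largest size with a mean of at least 100 normalized counts, and GAPDH, GPI, PFKL, PFKM, PGAM1, LDHB, SLC2A3, SLC16A1, SLC16A3, HIF1A, MYC and TXNIP whatever they did. Results of 2 genes that this rule picks are not reported here. 3′ UTRs and coordinates are those of GENCODE release 44 (hg38), which held 98.9% of the identifiers. Promoters and microRNAs are those of RefSeq (GRCh38.p14). Alternatives were RLE and upper-quartile scaling, DESeq2 1.42.0, limma-voom (limma 3.58.1), a mean count of at least 50, no filter, only the groups compared, a replicate block, and each library left out, where a lone library is assumed to vary like the other groups.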

Additional observations from a re-analysis of the deposited data

Results flagged for a closer look

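The effect of siGGGGGC against siNT1 at 48 h minus the effect at 24 h was tested as an interaction term (edgeR quasi-likelihood F test, Benjamini-Hochberg over all genes tested), and genes named in the text that passed are given here with that difference on the log2 scale, where a positive value means a higher effect at 48 h. Among the 10 genes it was 0.38 for SLC2A1 and 0.61 for ALDOA. Neither passed with DESeq2 or without a low-count filter, where HK2 and LDHA passed as lower instead.

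Among transporters and enzymes of glycolysis the difference was 1.69 for SLC2A3, which passed as higher at 48 h and not at 24 h, -1.09 for SLC2A6, 1.78 for HKDC1, -0.68 for PFKL, -0.59 for PFKM, 0.54 for PGAM1, 0.63 for BPGM and -0.52 for ENO2. The regulatory enzyme PFKFB2 had -0.72. At the fate of pyruvate it was -0.74 for SLC16A7, 1.58 for PDK1 and -0.59 for MPC2. TALDO1 had 1.04. Among glycogen and gluconeogenesis genes it was -0.80 for GYS1, 0.50 for PYGL, -0.80 for PYGB and -1.10 for G6PC3.

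Among regulators the difference was 0.68 for HIF1A, -1.21 for EPAS1, -0.88 for MYC, -1.63 for TXNIP and 1.35 for KLF4. The siNT1 level at each time enters this difference, and EPAS1, MYC and TXNIP passed as higher in siNT1 from 24 h to 48 h. Mean normalized counts of EPAS1 went from 147 to 338 with siNT1 and from 193 to 189 with siGGGGGC. Those of MYC went from 1477 to 2460 and from 984 to 888, and those of TXNIP from 746 to 1512 and from 188 to 123. Among hypoxia-responsive genes it was 3.44 for DDIT4, 2.43 for VEGFA, 1.5 for NDRG1, 0.81 for KDM3A and 0.62 for ANGPTL4. In siNT1 from 24 h to 48 h, NDRG1, ANGPTL4, SLC2A6, PFKL, PYGB and G6PC3 also passed as higher, and VEGFA and PYGL as lower.
Groups of 2 libraries were too small to ask whether 1 library stands apart from the rest of its group.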

How the results depend on the processing

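Of 780 values of the 10 genes under the 19 alternatives, 694 kept their side of the threshold, 56 dropped out of it and 30 came past it. None turned its direction while called, and the direction of values called in neither fit was not compared. Of 3666 values of the other genes that the naming rule picks, 3476 kept their side of the threshold. Fitted on only the groups compared, siGGGGGC at 24 h had 5127 genes (against 3203), 36 pathway genes (23) and 8 of the 10 genes (4), siGGCAGU had 5 of the 10 (8), the difference between times 4 (2), and the siNT1 time comparison 1 (2). That time comparison had 4 of the 10 with DESeq2, 1 with limma-voom and 4 without a low-count filter. In the difference between times, different genes of the 10 passed in different fits. SLC2A1 and ALDOA passed as higher in the reported fit. With DESeq2 and without a low-count filter, HK2 and LDHA passed instead, as lower. Upper-quartile scaling turned the split of the siNT1 time comparison from 1584 of 2801 genes higher to 1297 of 3033. With 1 library left out, siGGGGGC at 24 h had 1510 to 1735 genes and 15 to 17 pathway genes, the difference between times had 0 to 2 of the 10, and the siNT1 time comparison had 392 to 3612 genes, 0 to 5 of the 10 and 5 to 21 pathway genes; the cause of these shifts, beyond fewer samples, was not tested.

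Replicate numbers did not pair the samples, since deviations of same-numbered libraries correlated at -0.361 to 0.145 between groups. With the replicate block, the difference between times had 1 of the 10 (SLC2A1 lost its call), ENO1 with siGGGGGC at 48 h lost its call (adjusted p = 0.0667), and siGGGGGC at 24 h had 2849 genes. With the siNT1 numbers at 48 h crossed, an alternative chosen after seeing the data, siGGGGGC had 9269 genes and siGGCAGU 8831, against 9345 and 8906. Of the 10 genes ALDOA had the fewest counts, so depth limits its values more than those of the other genes.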
